A study of Mus musculus with 15 samples.

Results

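Adipokines are proteins that fat tissue releases into the circulation or its surroundings. The 9 genes considered here encode leptin (Lep), adiponectin (Adipoq), resistin (Retn), adipsin (Cfd), retinol-binding protein 4 (Rbp4), chemerin (Rarres2), angiotensinogen (Agt), nicotinamide phosphoribosyltransferase (Nampt) and apelin (Apln). A gene was taken as measured where a probe set carried its symbol and no other, and the brightest such probe set over the 15 arrays stood for it. This gave 8 of the 9 genes, with 1 probe set each, among 19938 named genes on the array; no probe set carried Cfd as its single symbol, so adipsin was not analysed here. The arrays came from gonadal white adipose tissue, the fat pad along the epididymis, of 8 Sfrp5 KO (Q27Stop) and 7 wild-type male mice of strain C57BL6/J, 1 array per mouse. The allele is labelled as a stop codon in Sfrp5, which encodes a secreted protein that binds Wnt ligands. All 15 mice, wild type included, had been on a high-fat diet for 8 weeks from the age of 4 weeks and were 12 weeks old, so the values describe fat of mice on that diet and no other diet was compared. Whether mice of a genotype were littermates is not stated.

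Leptin is made by adipocytes in amounts that follow fat mass, and it acts in the brain to curb food intake. Adiponectin is also made by adipocytes and is known for improving insulin sensitivity, while its level in blood is lower in obesity. Resistin in the mouse is an adipocyte product that opposes insulin, whereas retinol-binding protein 4, chemerin and angiotensinogen are made by liver as well as fat.

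Of the 9 genes, 8 had an entry in the RefSeq table of promoter windows for GRCm38.p6, each window running from 250 bases before to 50 after the annotated start. Rarres2 had no entry, while Cfd, not measured on the arrays, had an entry. The windows of Lep, Agt, Adipoq and Rbp4 are shown because Lep and Agt moved in opposite directions across mice and Adipoq and Rbp4 moved together, as described below. They read 5′ to 3′ on the gene's strand, and capitals mark every match to 1 of 7 motifs searched on both strands. The Lep window is chr6:29059971-29060270 on the plus strand, the Agt window chr8:124569657-124569956 on the minus strand, and the Adipoq window chr16:23146286-23146585 on the plus strand. Rbp4 has 2 annotated starts, and the window shown is chr19:38124762-38125061 on the minus strand.
Lep: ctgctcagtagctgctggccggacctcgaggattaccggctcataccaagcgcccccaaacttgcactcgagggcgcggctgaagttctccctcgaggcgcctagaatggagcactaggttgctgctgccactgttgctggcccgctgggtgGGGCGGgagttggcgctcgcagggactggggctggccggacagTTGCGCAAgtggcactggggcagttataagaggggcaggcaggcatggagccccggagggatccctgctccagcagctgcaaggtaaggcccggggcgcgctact
Agt: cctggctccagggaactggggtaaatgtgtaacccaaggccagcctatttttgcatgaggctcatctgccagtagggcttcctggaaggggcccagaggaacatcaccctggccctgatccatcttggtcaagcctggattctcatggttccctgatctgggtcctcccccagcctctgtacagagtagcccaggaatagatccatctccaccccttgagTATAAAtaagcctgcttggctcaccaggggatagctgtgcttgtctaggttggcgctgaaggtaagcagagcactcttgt
Adipoq: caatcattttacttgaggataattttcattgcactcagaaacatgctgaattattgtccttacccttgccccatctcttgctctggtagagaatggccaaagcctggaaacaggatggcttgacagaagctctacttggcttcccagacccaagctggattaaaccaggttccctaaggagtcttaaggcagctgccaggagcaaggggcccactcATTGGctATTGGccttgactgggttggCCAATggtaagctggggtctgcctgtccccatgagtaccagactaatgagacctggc
Rbp4: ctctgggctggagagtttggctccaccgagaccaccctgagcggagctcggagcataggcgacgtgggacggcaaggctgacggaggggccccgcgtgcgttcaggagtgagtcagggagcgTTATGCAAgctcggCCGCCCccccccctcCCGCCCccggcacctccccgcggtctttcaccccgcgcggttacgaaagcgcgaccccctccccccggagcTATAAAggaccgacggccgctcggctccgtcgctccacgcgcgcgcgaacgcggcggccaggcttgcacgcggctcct
The motifs were the TATA box (TATAAA, in 13.6% of all 32851 windows), the CCAAT box (CCAAT, 37.4%), the GC box (GGGCGG, 35.7%), a C/EBP form (TTGCNNAA, 10.8%), an E-box (CACGTG, 7.15%), the TCF/LEF core (CTTTGA, 16%) and a PPAR direct repeat (a pair of AGGNCA half-sites with any single base between, 0.381%). Lep held a C/EBP match from base -55 to -48 before the start and a GC box from -98 to -93. Rbp4 held a C/EBP match from -128 to -121, 2 GC boxes and a TATA box from -28 to -23 at the start shown, and Agt held a TATA box from -30 to -25. The window of Rbp4's other start, not printed, held a CCAAT box and 2 TCF/LEF matches, from -29 to -24 and from -5 to 1. Adipoq held 3 CCAAT boxes, the nearest from -7 to -3. No marked motif overlapped another in these windows. A match is a description of letters and not evidence of binding.

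The tissue label was checked against 11 measured adipocyte markers, whose mean signals ranked from percentile 92.7 to percentile 99.9 of all probe sets. Sfrp5, the targeted gene, was lower in the knockout, with a lowest, median and highest log2 signal of 6.02, 6.77 and 7.12 in 8 knockout mice, against 7.66, 7.83 and 8.33 in 7 wild-type mice. The genotypes did not overlap, and the difference was -1.23 (SE 0.16; limma adjusted p = 0.0200 over 35557 probe sets), although a fit that blocks on replicate number, in which knockout replicate 8 has no partner and carries no weight, gave an adjusted p of 0.300. Across the whole array 12 probe sets passed an adjusted p of 0.05, and ranges of the genotypes did not overlap for 77, or 0.217%. Knockout replicate 2 and wild-type replicate 4 stood apart, with median correlations to the other arrays of 0.969 and 0.972, against 0.978 to 0.985 for the rest. These 2 arrays also had the highest mean of 9 epididymis markers in their genotypes, 10.07 and 7.09, while knockout replicate 8 and wild-type replicate 2 had the highest mean of 14 macrophage markers, 9.44 and 9.0. In bulk tissue, fewer cells of a type and less RNA per cell cannot be told apart.

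None of the 8 measured adipokine genes passed the test between genotypes, where 0.0337% of all probe sets did (0.0281% higher and 0.00562% lower in the knockout). At an unadjusted p under 0.05 there was 1 of 8, Adipoq, against 9.97% of all probe sets (4.94% higher and 5.03% lower in the knockout). The log2 differences ran from -0.08 to 0.17 with a median of 0.05, against a median of -0.01 over all probe sets. A difference above 0 was seen for 7 of 8 genes as deposited, against 47.5% of all probe sets. After quantile normalization of the 15 arrays it was seen for 5 of 8, with Retn and Rarres2 then below 0. With the knockout cut to replicates 7 and 8 it was also seen for 5 of 8, with Lep then at 0.24, Agt at -0.56, Nampt at -0.24 and Retn at -0.069. With the knockout cut to replicates 1 to 6 it was seen for 7 of 8. Lep was then at -0.19, Agt at 0.24, Nampt at 0.12 and Retn at 0.099, each opposite in sign.

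**Figure D1:**
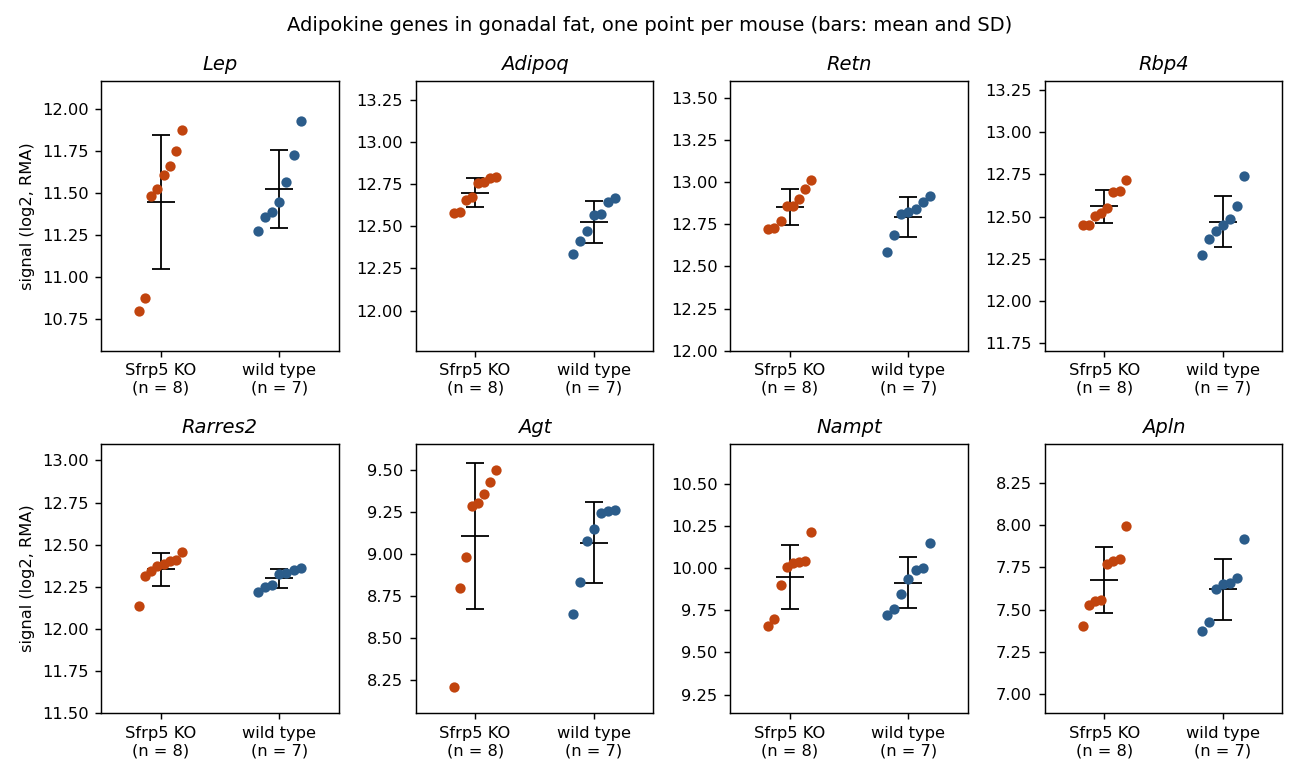
Log2 RMA signal of the 8 measured adipokine genes, 1 point per mouse, with Sfrp5 KO (n = 8) left of wild type (n = 7) and bars for mean and SD. Each panel spans the same log2 height. The genotypes overlap for every gene, and Lep and Agt have the widest scatter.

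Lep read 10.80, 11.57 and 11.88 (lowest, median and highest) in knockout mice, against 11.28, 11.45 and 11.93 in wild-type mice. Knockout replicates 4 and 2, at 10.80 and 10.88, lay below every wild-type mouse, and the other 6 knockout mice lay within the wild-type range. The mean was 11.45 ± 0.40 (SD, n = 8) in the knockout and 11.53 ± 0.23 (SD, n = 7) in wild type. The difference of -0.08 (SE 0.16; limma adjusted p = 0.918) had a 95% interval from -0.42 to 0.26, which allows a knockout signal from 0.747 to 1.20 times that of wild type. The difference turned to 0.0012 without knockout replicate 2 and to 0.012 without knockout replicate 4.

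Adipoq read 12.58, 12.71 and 12.79 in knockout mice, against 12.33, 12.57 and 12.67 in wild-type mice. The ranges overlapped, yet 5 of 8 knockout mice lay above the highest wild-type mouse, 5 of 7 wild-type mice lay below the lowest knockout mouse, and 8 of 8 knockout mice lay above the wild-type mean. The means were 12.70 ± 0.09 (SD, n = 8) in the knockout and 12.52 ± 0.12 (SD, n = 7) in wild type. The difference of 0.17 (SE 0.06), a signal 1.13 times that of wild type with a 95% interval from 1.03 to 1.23, did not pass (limma adjusted p = 0.328). It lay between 0.14 and 0.20 with any 1 array left out and was 0.11 after quantile normalization.

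Retn read 12.72, 12.86 and 13.01 in knockout mice, against 12.59, 12.82 and 12.92 in wild-type mice. The difference was 0.06 (SE 0.06; limma adjusted p = 0.837). Rbp4, whose product carries retinol in blood, read 12.45, 12.54 and 12.72 in knockout mice, against 12.27, 12.45 and 12.74 in wild-type mice. The ranges overlapped, with 3 of 7 wild-type mice below the lowest knockout mouse and wild-type replicate 1 the highest of all 15, and the difference was 0.09 (SE 0.07; limma adjusted p = 0.735). Rbp4 lies on chromosome 19 with Sfrp5, with 57 protein-coding genes between them in the RefSeq order of GRCm38.p6, so for Rbp4 an effect of the allele and one of linked sequence cannot be told apart. The 7 other measured adipokine genes lie on chromosomes 6, 8, 12, 16 and X.

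Rarres2, the precursor of the chemoattractant chemerin, read 12.14, 12.38 and 12.46 in knockout mice, against 12.22, 12.33 and 12.36 in wild-type mice. Knockout replicate 2, the array with the highest epididymis markers, was the lowest of all 15, while 5 of 8 knockout mice lay above the highest wild-type mouse. The difference was 0.05 (SE 0.05; limma adjusted p = 0.811). Nampt, the rate-limiting enzyme of NAD salvage that is also released from cells as visfatin, read 9.66, 10.02 and 10.22 in knockout mice, against 9.72, 9.93 and 10.15 in wild-type mice. Its difference was 0.03 (SE 0.09; limma adjusted p = 0.941), and -0.0042 without knockout replicate 3.

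The vascular pair was no more separated. Agt, the precursor of the angiotensins, read 8.21, 9.29 and 9.50 in knockout mice, against 8.64, 9.15 and 9.26 in wild-type mice. Knockout replicate 8 was the lowest of all 15 mice, 5 of 8 knockout mice lay above the highest wild-type mouse, and the difference was 0.04 (SE 0.17; limma adjusted p = 0.965). It turned to -0.015 without knockout replicate 2, -0.0051 without knockout replicate 4 and -0.030 without wild-type replicate 2. Apln, whose peptide acts on a receptor of endothelial and heart cells, read 7.40, 7.66 and 8.00 in knockout mice, against 7.37, 7.65 and 7.92 in wild-type mice. Its difference was 0.05 (SE 0.10; limma adjusted p = 0.903).

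**Figure D2:**
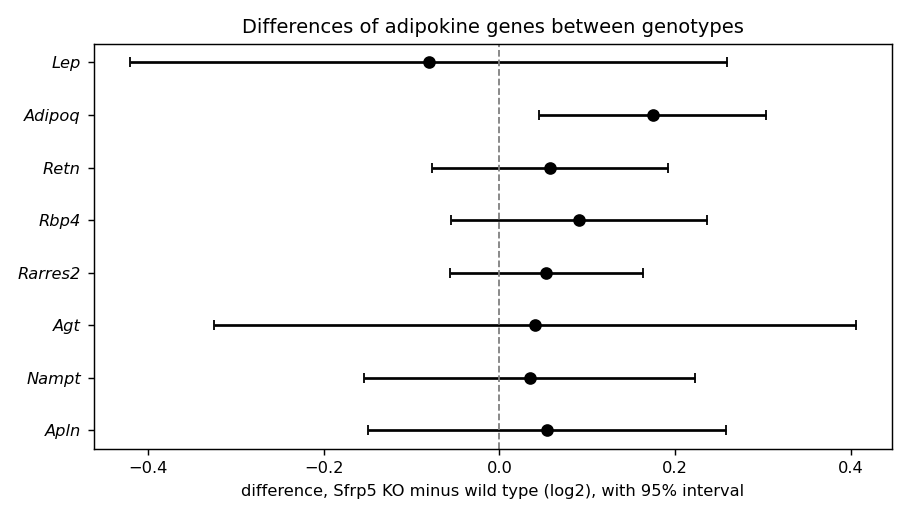
Differences of the 8 measured adipokine genes, Sfrp5 KO minus wild type on the log2 scale, as points with limma's 95% interval. The interval of Adipoq, from 0.05 to 0.30, lies above 0 before adjustment, and the other 7 intervals include 0.

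Mice of 1 genotype differed far more in some adipokine genes than in others. The SD between mice, pooled within genotypes on the log2 scale, was 0.36 for Agt and 0.33 for Lep, at the 84.3rd and 82.0th percentile of all probe sets, whose median SD was 0.18. Those 2 genes spanned 2.45-fold and 2.19-fold over the 15 mice. Apln (0.19) and Nampt (0.17) lay near the median. The 4 remaining genes varied little, with SDs of 0.12 for Rbp4, 0.11 for Retn, 0.10 for Adipoq and 0.08 for Rarres2, the last at the 3.13th percentile. The probe sets of these 4 genes had mean signals at percentiles 98.8 to 99.6 of the array, and the part of brightness in their small SDs was not tested. For Lep the SD was 0.40 in knockout and 0.23 in wild-type mice, and for Agt 0.43 in knockout and 0.24 in wild-type mice; the difference in spread was not tested.

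Across the 15 mice the adipokine genes did not move as 1 block. Pearson correlations were computed for all 28 pairs, with 100000 permutations each, and 4 pairs passed after Benjamini-Hochberg adjustment over the 28; none passed by Spearman's rho, where the lowest adjusted p was 0.0535. Lep and Agt ran in opposite directions (r = -0.74, permutation p = 0.00251, adjusted p = 0.0351; rho = -0.74, permutation p = 0.00227). Within genotypes r was -0.72 in the knockout and -0.81 in wild type, and it was -0.74 without knockout replicates 2 and 4, the mice farthest from the median of Lep. Without knockout replicate 8 and wild-type replicate 2, farthest from the median of Agt, r was -0.68 and the pair no longer passed (permutation, adjusted p = 0.0645). Mice with the highest Lep, knockout replicate 8 and wild-type replicate 2, had the lowest Agt of their genotypes, at 8.21 and 8.64.

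The other 3 pairs all held Rbp4. Adipoq and Rbp4 moved together (r = 0.73, permutation p = 0.00169, adjusted p = 0.0351; rho = 0.66, permutation p = 0.00869), with r = 0.73 in knockout and r = 0.69 in wild-type mice. The r was 0.50 without wild-type replicates 4 and 7, farthest from the median of Adipoq. It was 0.82 without wild-type replicates 1 and 7, farthest from the median of Rbp4. Retn and Rbp4 had r = 0.67 (permutation p = 0.00655, adjusted p = 0.0458; rho = 0.69, permutation p = 0.00631), with 0.93 in knockout and 0.45 in wild-type mice. Their r stayed at 0.67 with knockout replicate 6 and wild-type replicate 2 left out, farthest from the median of Retn. It was 0.65 without wild-type replicates 1 and 7. Rbp4 and Nampt had r = 0.67 (permutation p = 0.00641, adjusted p = 0.0458; rho = 0.64, permutation p = 0.0124), with 0.64 in knockout and 0.79 in wild-type mice. Their r was 0.56 without wild-type replicates 1 and 7. It was 0.77 without knockout replicates 7 and 8, farthest from the median of Nampt. Correlations of this size are not rare on these arrays: 6.74% of all probe sets reached an r of 0.67 in size with Lep, 4.71% with Agt, 3.41% with Rarres2, 2.59% with Adipoq, 2.38% with Rbp4, 2.11% with Apln, 1.84% with Nampt and 1.39% with Retn. The number of pairs that passed also moved with the processing and with single mice, as given in the closing section.

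**Figure D3:**
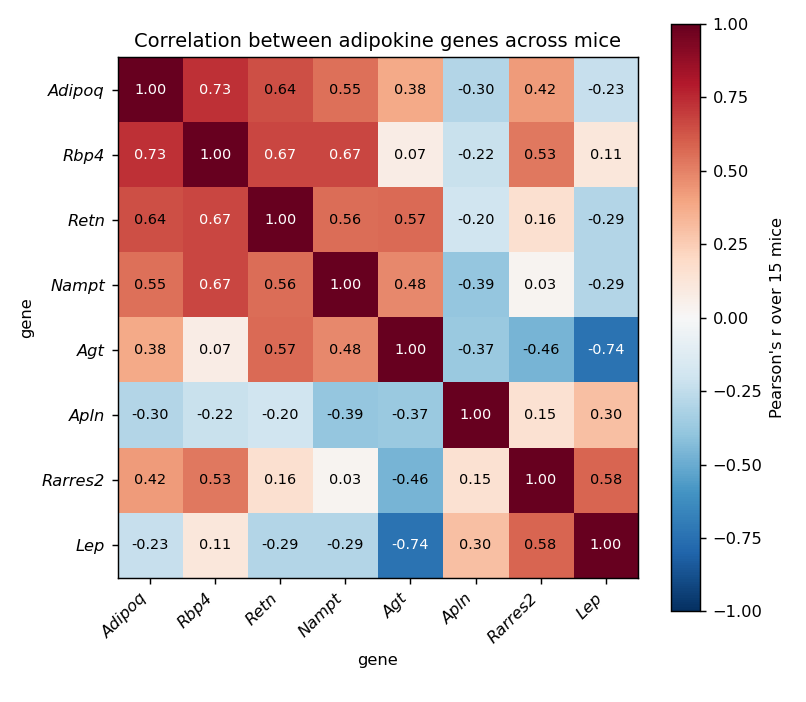
Pearson's r over 15 mice for each pair of the 8 measured adipokine genes, coloured from -1 (blue) to 1 (red). Adipoq, Rbp4, Retn and Nampt form a block of positive values from 0.55 to 0.73, and Lep stands against Agt at -0.74.

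Lep and Adipoq, which both encode adipocyte hormones, did not pass as a pair. Their r was -0.23 (permutation p = 0.405, adjusted p = 0.540; rho = -0.12, permutation p = 0.676). Among the 7 other genes Lep had its highest positive r with Rarres2, at 0.58, which did not pass (permutation p = 0.0254, adjusted p = 0.104; rho = 0.54, permutation p = 0.0417).

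Lep and Sfrp5 were correlated from mouse to mouse once genotype means were removed, while within wild type alone the relation did not pass. This relation was looked for after the values had been seen, so it is given as a description. With genotype means removed, Lep and Sfrp5 had r = 0.96 over the 15 mice (permutation within genotypes, p = 7.0e-05, adjusted p = 0.00056 over 8 genes; rho = 0.94, permutation p = 7.0e-05). Among 18614 named genes, Lep had the highest such r with Sfrp5, and Sfrp5 ranked 3 by its r with Lep. Within the knockout alone those ranks were 5 for Lep and 17 for Sfrp5, and within wild type 77 and 85. Without knockout replicates 2 and 4, whose Sfrp5 lay farthest out, r was 0.90.

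Within the knockout, r of Lep and Sfrp5 was 0.97 over 8 mice (exact permutation p = 0.00107, adjusted p = 0.0171 over 16 tests; rho = 0.88, exact permutation p = 0.00724, adjusted p = 0.0579), so by rank it did not pass. Agt had a rho of the same size with Sfrp5 there, -0.88 (exact permutation p = 0.00724, adjusted p = 0.0579; r = -0.67, exact permutation p = 0.0612). Knockout replicates 4 and 2 had the lowest Sfrp5, at 6.02 and 6.15, and the lowest Lep, at 10.80 and 10.88. They stood apart from the other 6 mice, over which r of Lep and Sfrp5 was 0.77 (exact permutation p = 0.0806). That size was not particular to Lep. Over those 6 mice Adipoq had r = -0.97 with Sfrp5 (exact permutation p = 0.00556, unadjusted), against -0.45 over all 8. Rbp4 had -0.82 (exact permutation p = 0.100), Apln 0.73, Nampt -0.71, Agt -0.68, Retn -0.67 and Rarres2 -0.38. Knockout replicate 2 was also the array with the highest epididymis marker mean, 10.07. The part of this in the relation of Lep and Sfrp5 was not tested. Within wild type r of Lep and Sfrp5 was 0.91 over 7 mice (exact permutation p = 0.00873, adjusted p = 0.0698; rho = 0.79, exact permutation p = 0.0480), and 0.26 over 5 mice without wild-type replicates 2 and 6, on which it rests. The slope was 0.96 log2 units of Lep per log2 unit of Sfrp5 in the knockout and 0.88 in wild type. Between genotypes Sfrp5 lay 1.23 lower in the knockout on the log2 scale and Lep differed by -0.08. What lies behind the relation of Lep and Sfrp5 was not tested.

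None of the 7 other genes passed by Pearson's r against Sfrp5 with genotype means removed. Agt came nearest, with r = -0.66 (permutation p = 0.0209, adjusted p = 0.0835; rho = -0.68, permutation p = 0.00963, adjusted p = 0.0385), so by rank it did pass. Rarres2 had r = 0.59 (permutation p = 0.0418, adjusted p = 0.112; rho = 0.54, permutation p = 0.0456), and Adipoq had r = -0.13 (permutation p = 0.621; rho = -0.18, permutation p = 0.522).

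**Figure D4:**
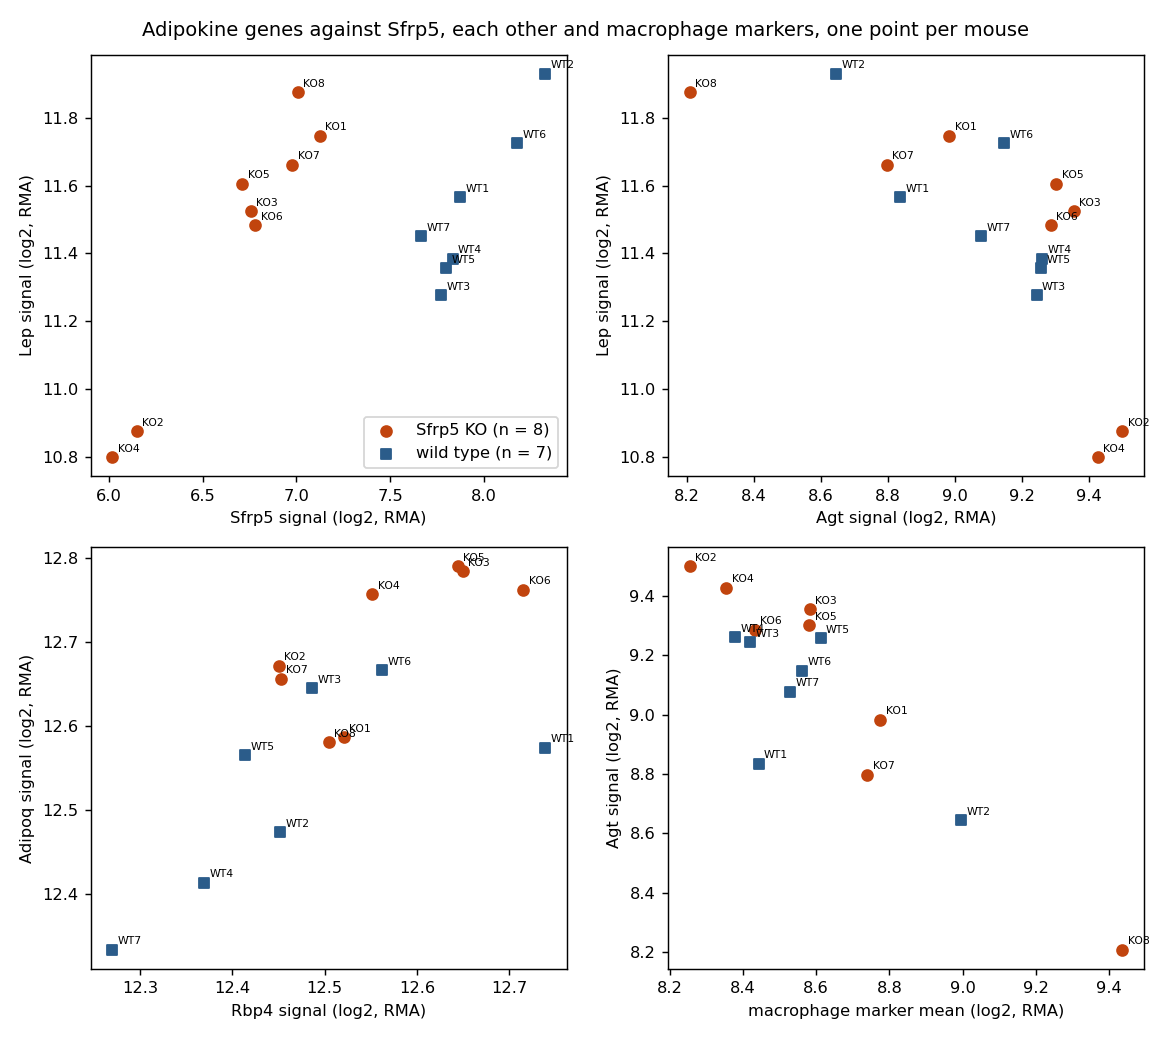
Log2 signals per mouse, with Sfrp5 KO as circles (n = 8) and wild type as squares (n = 7): Lep against Sfrp5, Lep against Agt, Adipoq against Rbp4, and Agt against the mean of 14 macrophage markers. Labels give genotype and replicate (KO8 is knockout replicate 8, WT2 wild-type replicate 2). KO2 and KO4 are lowest in both Lep and Sfrp5, and WT2 and WT6 are highest in both among wild type; without these pairs r within genotypes is 0.77 and 0.26.

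Markers of other cell types moved with some adipokine genes, and their part in the results above was not tested. Of 88 pairs of an adipokine gene and a marker list, 2 passed by Pearson's r. Agt ran against the mean of 14 macrophage markers (r = -0.89, permutation p = 9.0e-05, adjusted p = 0.00792; rho = -0.70, permutation p = 0.00459, adjusted p = 0.0732), with -0.96 in knockout and -0.69 in wild-type mice. Without knockout replicate 8 and wild-type replicate 2, the mice with the most macrophage signal, r was -0.61. The macrophage mean ranged from 8.25 to 9.44 in the knockout and from 8.38 to 9.0 in wild type, and 12 of the 14 markers differed by more than 0 between genotypes, with a median of 0.08 and none past the test. Other lists had larger median differences, also with no marker past the adjusted test. Of mesothelial markers 9 of 9 were higher (median 0.41, 4 at an unadjusted limma p under 0.05), and 8 of 9 endothelial markers were lower (median -0.10). For epididymis markers 8 of 9 were higher (median 0.47). Their mean was 10.07 in knockout replicate 2, against medians over mice of 6.01 in the knockout and 5.85 in wild type. Of all probe sets 47.5% differed by more than 0, and 4.94% were higher at an unadjusted limma p under 0.05.

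Lep ran with the same macrophage markers (r = 0.74, permutation p = 0.00267, adjusted p = 0.0609; rho = 0.83, permutation p = 0.00027, adjusted p = 0.0238). That pair passed by rank and not by Pearson's r, as did Retn with 8 skeletal muscle markers (rho = 0.78, permutation p = 0.00109, adjusted p = 0.0320; r = 0.64, permutation p = 0.0113, adjusted p = 0.124). For Lep with macrophage markers r was 0.77 without knockout replicate 8 and wild-type replicate 2. Lep also had r = 0.70 with 9 endothelial markers (permutation p = 0.00441, adjusted p = 0.0776; rho = 0.61, permutation p = 0.0172), whose mean ranged from 9.01 to 9.40 in the knockout and from 8.94 to 9.55 in wild type.

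With the adipocyte markers only Rbp4 passed, among 8 genes. Rbp4 followed the mean of 11 adipocyte markers (r = 0.80, permutation p = 0.00048, adjusted p = 0.0211; rho = 0.80, permutation p = 0.00069), with 0.94 in knockout and 0.77 in wild-type mice, and 0.71 when knockout replicate 2 and wild-type replicate 7 were set aside. Retn had r = 0.72 with that list (permutation p = 0.00277, adjusted p = 0.0609; rho = 0.74, permutation p = 0.00238) and Adipoq 0.61 (permutation p = 0.0150, adjusted p = 0.147; rho = 0.51, permutation p = 0.0562), neither past adjustment. Rarres2 at 0.55 and Nampt at 0.52 did not pass either, and Lep had 0.22. The adipocyte mean ranged from 11.75 to 12.09 in the knockout and from 11.66 to 12.02 in wild type. Of the 11 markers 8 differed by more than 0, as did 47.5% of all probe sets.

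Rarres2 ran against the epididymis markers (r = -0.67, permutation p = 0.0108, adjusted p = 0.124; rho = -0.34, permutation p = 0.214). That value rests on knockout replicate 2 and wild-type replicate 4, without which r was 0.14.

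**Figure D5:**
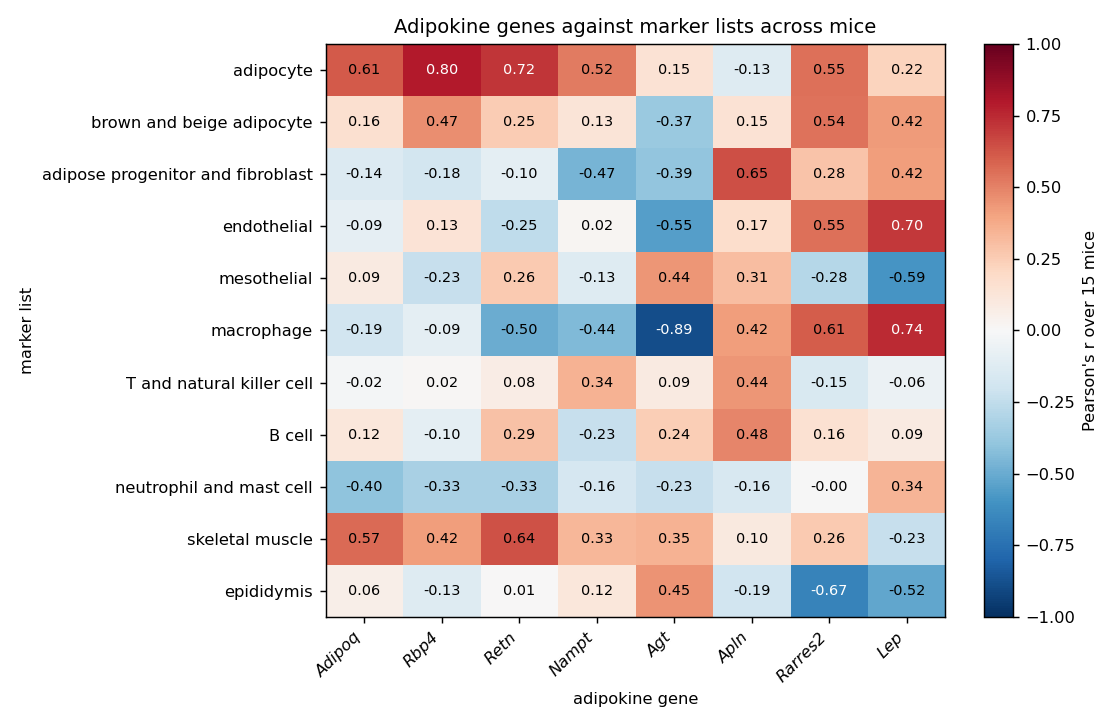
Pearson's r over 15 mice between each of the 8 measured adipokine genes (columns) and the mean of each of 11 marker lists (rows), coloured from -1 (blue) to 1 (red). Lep and Agt show opposite signs against macrophage markers, 0.74 and -0.89, and adipocyte markers have 0.80 with Rbp4, 0.72 with Retn, 0.61 with Adipoq, 0.55 with Rarres2 and 0.52 with Nampt, of which only Rbp4 passed.

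The 3 named genes with the highest Pearson's r to each adipokine gene over the 15 mice were taken as most like it. For Lep they were Prps1 (r = 0.96), an enzyme of nucleotide precursor synthesis, Vac14 (0.96) and Capzb (0.96), an actin capping protein. For Adipoq they were Rab10 (0.95), a small GTPase of vesicle traffic, Hint2 (0.94) and Chpt1 (0.93), an enzyme of phosphatidylcholine synthesis. For Retn they were the growth factor gene Fgf10 (0.91), the mitochondrial carbonic anhydrase gene Car5b (0.88) and Echs1 (0.87), and for Rbp4 Morc4 (0.89), the amine oxidase gene Aoc3 (0.88) and the isocitrate dehydrogenase gene Idh1 (0.88). For Rarres2 they were the protease gene Htra1 (0.90), Umps (0.90) and Flii (0.88), and for Agt B3galt2 (0.91), Ptpdc1 (0.89) and the BMP antagonist gene Chrdl1 (0.89). For Nampt they were Aspa (0.90), Zmym6 (0.86) and Kmt5b (0.85), and for Apln Foxa1 (0.88), Zfyve28 (0.88) and the sterol transporter gene Abcg5 (0.86). Each is the top of 18614 genes and therefore high by selection.

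Receptors and partners of the adipokines were taken from 8 lists of 101 entries, of which 90 were measured. None of the 90 passed the adjusted test, where 0.0337% of all probe sets did, so a count of 0 is near the background. For the counts of higher and lower genes below, 47.5% of all probe sets differed by more than 0. Among 7 receptors of leptin, adiponectin and chemerin, 4 differed by more than 0 and 3 by less, with a median of 0.07, and the lowest p was that of the chemerin receptor gene Gpr1 at -0.19 (SE 0.10; limma adjusted p = 0.572). Ccrl2 and Cmklr1, which also bind chemerin, differed by 0.09 and 0.11. Among 9 receptors and processing enzymes of apelin and the angiotensins 3 were higher and 6 lower, with a median of -0.07. Ace, which converts angiotensin I to angiotensin II, differed by 0.20 (SE 0.07; limma adjusted p = 0.317), with 8.62 ± 0.14 in the knockout (SD, n = 8) and 8.42 ± 0.10 in wild type (SD, n = 7). The angiotensin receptor genes Agtr1a and Mas1 differed by -0.18 and 0.12.

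The 5 measured retinol carriers and receptors had a median difference of 0.07, with Stra6, the cell receptor for retinol-binding protein, at -0.08, Stra6l at 0.08 and Rbp2 at 0.11. The 9 measured partners of adipsin in the complement system had a median of 0.07, with 7 higher and 2 lower, and with Cd55, which shields cells from complement, at 0.21, Cfp at 0.07 and C3ar1 at 0.10. For 9 genes of adiponectin assembly and secretion the median was -0.05, with P4ha1 at -0.13, Gstk1 at -0.10 and P4ha2 at 0.07. Of 9 genes of NAD synthesis 3 were higher and 6 lower, and Nmrk1, a kinase of nicotinamide riboside, differed by -0.32 (SE 0.10; limma adjusted p = 0.288), Nmnat2 by -0.15 and Qprt by 0.12.

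Of 30 other secreted proteins of fat 21 were higher and 9 lower, with a median of 0.04; Serpina12, the gene of vaspin, differed by -0.25 (SE 0.11; limma adjusted p = 0.477), and the C1q family genes C1qtnf12 and C1qtnf2 by 0.12 and 0.10. Of 12 transcription factors with known adipokine targets 7 were higher and 5 lower, with a median of 0.01. Cebpa differed by 0.10 (SE 0.05; limma adjusted p = 0.552), E2f1 by 0.09 and Pparg, the nuclear receptor that drives Adipoq in adipocytes, by -0.07.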

How the data were processed

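The deposited values are log2 signals of 35557 probe sets in 15 arrays, made by the authors with RMA, per the submitters' processing notes. Those notes list Affymetrix Expression Console 1.1.2800.19935, affy 1.18 and limma as tools, with no role stated. The deposited array medians ran from 6.99 to 7.07. A further quantile normalization lowered the difference of every measured adipokine gene, so the deposited distributions were not identical. Total RNA (10 ng) was amplified and biotin-labelled, per the labels' protocols. For the probe sets a genome build is not given in the sources at hand. No scanner output entered the work, so signal over background was not assessed, and the number of arrays limits the precision.

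Exactly 1 symbol was given for 21789 probe sets in the platform annotation, several for 1621 and none for 12147; 21698 gene identifiers matched the RefSeq table of GRCm38.p6. The genotype fit ran in R 4.3.3 on unfiltered values with limma 3.58.1 and its moderated two-sided test, genotype being the single term. Benjamini-Hochberg adjustment covered all probe sets. Correlations used two-sided permutation tests (100000 draws, or all 5040 or 40320 orders for 7 or 8 mice) with numpy 2.4.6 in Python 3.11.15. The planned family of pairs became 28, since Cfd had no value. The fit and the permutation test were tested on simulated data. Names in the text are Sfrp5, the 8 measured members, the 3 genes most like each, and, per list, the 3 genes of lowest p; for marker lists only the list is given. Members, lists, markers and tests were chosen with earlier results of these data known. Same-numbered mice of both genotypes did not deviate together: their correlation over probe sets ran from -0.12 to 0.25, so the number was not treated as a pairing.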

Additional observations from a re-analysis of the deposited data

Results flagged for a closer look

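In 40 sets of 7 or 8 mice, 8 held a mouse whose distance to its nearest neighbour was large for the range of its genotype; chance gives about 1 in 20. Rarres2 in knockout replicate 2 was 12.14, with the next mouse at 12.31. That array also had an epididymis marker mean of 10.07, against 6.72 in the next knockout mouse, and a brown and beige adipocyte mean of 6.83, against 7.09. In wild-type replicate 4 the epididymis mean was 7.09, with the next wild-type mouse at 6.24, and the endothelial mean was 8.94, with the next at 9.33. The macrophage mean was 9.44 in knockout replicate 8, with the next knockout mouse at 8.77, and 9.0 in wild-type replicate 2, with the next wild-type mouse at 8.61. The mean of T and natural killer cell markers was 6.61 in wild-type replicate 6, with the next at 6.83.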

How the results depend on the processing

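No adipokine gene passed the test between genotypes under any of 26 alternatives; in 11 of these no probe set on the whole array was called, so 0 of 8 says nothing there. With any 1 array left out the differences ranged from -0.14 to 0.012 for Lep, -0.030 to 0.17 for Agt, -0.0042 to 0.076 for Nampt, 0.023 to 0.078 for Retn (lowest without wild-type replicate 2), 0.0081 to 0.10 for Apln (lowest without knockout replicate 1), 0.057 to 0.14 for Rbp4 (lowest without wild-type replicate 7), 0.038 to 0.084 for Rarres2 (highest without knockout replicate 2) and -1.29 to -1.13 for Sfrp5, which lost its call in 7 of these 15 fits (adjusted p up to 0.0670). Quantile normalization gave -0.0033 for Retn and -0.022 for Rarres2. Without knockout replicate 2 and wild-type replicate 4 together Nampt was at -0.0059 and Sfrp5 at -1.17 (adjusted p = 0.119), and without knockout replicate 8 and wild-type replicate 2 Sfrp5 was at -1.21 (0.0627). With the knockout cut to replicates 7 and 8, those with a description number of 640 or higher like all wild-type arrays, Lep was at 0.24, Retn at -0.069, Agt at -0.56, Nampt at -0.24 and Sfrp5 at -0.93 (0.316). With the knockout cut to replicates 1 to 6, Lep was at -0.19, Retn at 0.099, Agt at 0.24, Nampt at 0.12 and Sfrp5 at -1.33 (0.0426). With the replicate number as a block Sfrp5 was at -1.28 (0.300), and no adipokine call changed.

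Without knockout replicate 8 and wild-type replicate 2 together 4 pairs passed, though Lep and Agt did not (r = -0.68, permutation, adjusted p = 0.0645). The 4 correlated pairs became 0 with quantile normalization, with values centred within genotype, without knockout replicate 2 and wild-type replicate 4 together, and with the knockout cut to replicates 7 and 8, and 7 with median centring. After quantile normalization r was -0.74 for Lep and Agt, and 0.66, 0.69 and 0.62 for Rbp4 with Adipoq, Retn and Nampt (permutation, adjusted p from 0.0623 to 0.0657). Centred within genotype, the same pairs had -0.74, 0.70, 0.64 and 0.68 (permutation, adjusted p from 0.0659 to 0.0682). With any 1 array left out the number ranged from 0 to 4, and it was 0 without knockout replicates 3, 6 or 7 or wild-type replicate 7, 1 without knockout replicates 2 or 5 or wild-type replicate 1, and 2 without knockout replicate 1 or wild-type replicate 6. The 2 pairs with marker lists became 4 with quantile normalization, 5 with median centring, 6 with values centred within genotype, and 0 without knockout replicate 2 and wild-type replicate 4 together, with knockout replicates 1 to 6 only and with 7 and 8 only; with 1 array left out they ranged from 1 to 4. The causes were not tested. The relations of single genes with Sfrp5 inside a genotype numbered 1, and 2 with median centring, 0 without knockout replicate 2 and wild-type replicate 4 together and 0 with knockout replicates 1 to 6 only, where fewer mice were tested, and 0 to 2 with 1 array left out (0 without knockout replicates 2, 4 or 7). The r of Lep and Sfrp5 centred within genotype passed under all 20 alternatives run for it, between 0.94 and 0.97 with 1 array left out. The relations with Sfrp5 were added after seeing the data.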
